A study of Mus musculus with 11 samples.

Results

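Imprinted genes and the CpG-rich stretches that control them were followed in Dnmt3a-deleted blood progenitors. The 40 genes lie at 20 imprinted loci and were taken by name, and every C position listed within 5 kb of a gene's span in GRCm38 was kept. That gave 2970 C positions measured in all 10 libraries of known group, of 1293035 in the whole data set, and 219 tiles of 1000 bp with at least 3 C positions in LSK or GMP, of 113595. A level is the percent of reads that read as C, that is, as methylated, over all C positions of a tile. Tiles whose mean level was 35 to 65% in control LSK and in control GMP were singled out as candidates for methylation of a single allele, and 33 of the 219 tiles met this, of 4022 in the whole data set. Reads were not assigned to parents, and the mice are given as a single inbred strain, so the alleles cannot be told apart in these data. Control levels chose the 33 tiles and are given as a description.

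DNA methylation was measured by enhanced reduced representation bisulfite sequencing in sorted bone marrow cells of C57BL/6 mice. All mice were Dnmt3a f/f, meaning that both copies of the de novo methyltransferase gene Dnmt3a were flanked by loxP sites, all were 12 months old, and 5 injections of poly(I:C) are given for every library. Knockouts also carried Mx1-Cre, whose promoter responds to interferon and is therefore not limited to blood cells, and controls did not. LSK cells (Lin- Sca1+ cKit+, a stem-cell-containing fraction) came as 3 control libraries (1326, 1330, 1331) and 3 knockout libraries (1327, 1333, 1334), and granulocyte-macrophage progenitors (GMP, sorted as Lin- Sca1- cKit+ CD34+ FcgR+) as 2 control libraries (346, 349) and 2 knockout libraries (178, 179). A further GMP library, 352, has a title and a genotype label that disagree, and it entered no comparison.

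Summed coverage was 157.4 to 181.1 M (1 M is 1e6) over the listed positions of an LSK library and 95.4 to 109.7 M of a GMP library. Reads carry no molecular identifiers, so depth limits counting error only. The tables hold neither expression nor the deleted exon, so neither the sorted cell types nor the deletion was checked. Knockout LSK library 1333 differed from the rest, with 129024 C positions listed in no other LSK library against 8117 to 26078 for each of the others, and results that rest on it are given with and without it.

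An imprinted gene is expressed from the copy inherited from a single parent. Its control region carries methylation laid down in the egg or in the sperm, in germ cells by DNMT3A with its partner DNMT3L, and this mark survives the erasure that follows fertilisation because ZFP57, ZFP445 and TRIM28 hold it and DNMT1 with UHRF1 copies it at each cell division. In adult tissue such a region is methylated on a single allele, so bulk cells read at an intermediate level. Whether Dnmt3a was deleted in these cells, and when relative to the setting of these marks, cannot be read from these data.

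Promoter windows from RefSeq on GRCm38.p6, 250 bases before to 50 after a start, show the 3 states in which start sites of these genes were found. The windows of Plagl1 (a zinc-finger transcription factor), Zrsr1 (a retrogene related to a splicing factor) and Igf2r (the receptor that clears IGF2) were partly methylated, near or under the lower limit of the 35 to 65% range that defines candidates, that of Grb10 (an adaptor that restrains insulin receptor signalling) was unmethylated, and that of Mcts2 (a retrogene inside an intron of H13) was methylated. Capitals mark the CG dinucleotides with a C position listed in all 10 libraries. The level of a window uses the C positions listed in every assigned library of the cell type. These outnumbered the C positions listed in all 10 libraries for Igf2r in LSK (34 against 28), Zrsr1 in LSK (11 against 10) and Grb10 in GMP (45 against 38).

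Plagl1, chr10:13090582-13090881, plus strand: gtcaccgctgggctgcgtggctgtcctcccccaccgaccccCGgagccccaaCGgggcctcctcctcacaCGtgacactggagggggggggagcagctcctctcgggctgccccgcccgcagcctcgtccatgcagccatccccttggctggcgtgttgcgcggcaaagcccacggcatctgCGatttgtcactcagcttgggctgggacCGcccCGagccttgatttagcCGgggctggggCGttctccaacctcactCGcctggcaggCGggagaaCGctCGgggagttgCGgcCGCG
Zrsr1, chr11:22971755-22972054, plus strand: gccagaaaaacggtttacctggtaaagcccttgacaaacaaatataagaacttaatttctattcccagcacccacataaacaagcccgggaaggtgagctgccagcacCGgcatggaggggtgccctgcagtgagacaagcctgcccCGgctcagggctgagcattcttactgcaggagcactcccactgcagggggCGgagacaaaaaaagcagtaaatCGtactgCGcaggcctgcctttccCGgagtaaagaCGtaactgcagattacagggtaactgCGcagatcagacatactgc
Igf2r, chr17:12769657-12769956, minus strand: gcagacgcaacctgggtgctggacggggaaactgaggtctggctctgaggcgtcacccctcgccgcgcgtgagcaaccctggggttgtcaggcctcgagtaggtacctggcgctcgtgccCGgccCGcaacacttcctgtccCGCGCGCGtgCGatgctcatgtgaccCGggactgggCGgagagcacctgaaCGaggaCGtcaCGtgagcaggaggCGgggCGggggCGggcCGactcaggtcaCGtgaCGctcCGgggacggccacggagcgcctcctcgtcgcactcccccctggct
Grb10, chr11:12037371-12037670, minus strand: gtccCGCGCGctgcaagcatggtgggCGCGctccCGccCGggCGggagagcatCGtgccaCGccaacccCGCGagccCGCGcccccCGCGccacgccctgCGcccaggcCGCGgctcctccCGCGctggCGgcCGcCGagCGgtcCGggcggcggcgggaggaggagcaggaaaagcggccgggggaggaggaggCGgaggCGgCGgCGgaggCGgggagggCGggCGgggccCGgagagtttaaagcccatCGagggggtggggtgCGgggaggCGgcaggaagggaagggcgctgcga
Mcts2, chr2:152686898-152687197, plus strand: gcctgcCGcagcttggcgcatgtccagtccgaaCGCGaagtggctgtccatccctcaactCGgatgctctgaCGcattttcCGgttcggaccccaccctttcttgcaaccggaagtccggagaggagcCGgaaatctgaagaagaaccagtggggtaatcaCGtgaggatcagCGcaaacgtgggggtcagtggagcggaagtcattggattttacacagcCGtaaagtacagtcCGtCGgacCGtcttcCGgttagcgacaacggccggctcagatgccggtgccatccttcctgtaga

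Of the 26 CG in the Plagl1 window, 15 were measured, and the 3 control LSK libraries read 34.6, 31.6 and 36.8% over it while the 3 knockouts read 37.2, 29.5 and 27.3%. In the Zrsr1 window, with 8 of 10 CG measured, control LSK libraries read 37.4, 33.2 and 33.1% and knockouts 30.8, 34.8 and 31.3%. The Igf2r window had 19 of 34 CG measured and levels of 30.2, 35.01 and 26.6% in control LSK against 34.5, 19.3 and 33.6% in knockouts. In all 3 of these windows control and knockout libraries overlapped. The Grb10 window, with 37 of 45 CG measured, was at 0.521 ± 0.330% (SD, n = 3) in control LSK and 0.302 ± 0.164% (n = 3) in knockout LSK. The Mcts2 window, with 14 of 25 CG measured, was at 94.2 ± 1.80% (n = 3) and 91.5 ± 2.07% (n = 3). In GMP the 5 windows kept this order of states, with control means of 29.5% for Plagl1, 37.6% for Zrsr1, 30.1% for Igf2r, 1.11% for Grb10 and 96.2% for Mcts2, and knockout means of 32.99, 42.4, 36.2, 0.445 and 94.8%. The hexamer TGCCGC, whose methylated form ZFP57 binds, was searched on both strands. It was present in 13 of 48 windows of the imprinted genes (27.08%), some of which overlap each other, and in 11.61% of all 32851 mouse promoter windows of this length. It occurs in the Plagl1, Grb10 and Mcts2 windows shown and not in those of Zrsr1 and Igf2r. Windows were matched for 31 of the 40 genes.

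The 33 candidate tiles lay at 16 of the 20 loci and touched 24 of the 40 genes. Intermediate levels were found at 16.75% of the 197 tiles of imprinted genes measured in both cell types, against 3.997% of all 100629 tiles so measured. Among tiles with at least 20 C positions 10 of 40 tiles of imprinted genes were at 35 to 65% in both controls against 118 of 15680 others (0.7526%). Of the remaining tiles of imprinted genes, 57 lay below 35% in both controls, 88 lay above 65% in both, and 19 fell in different ranges in the 2 cell types. The plot of control levels by locus shows the candidates as a band between low and high tiles.

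**Figure D1:**
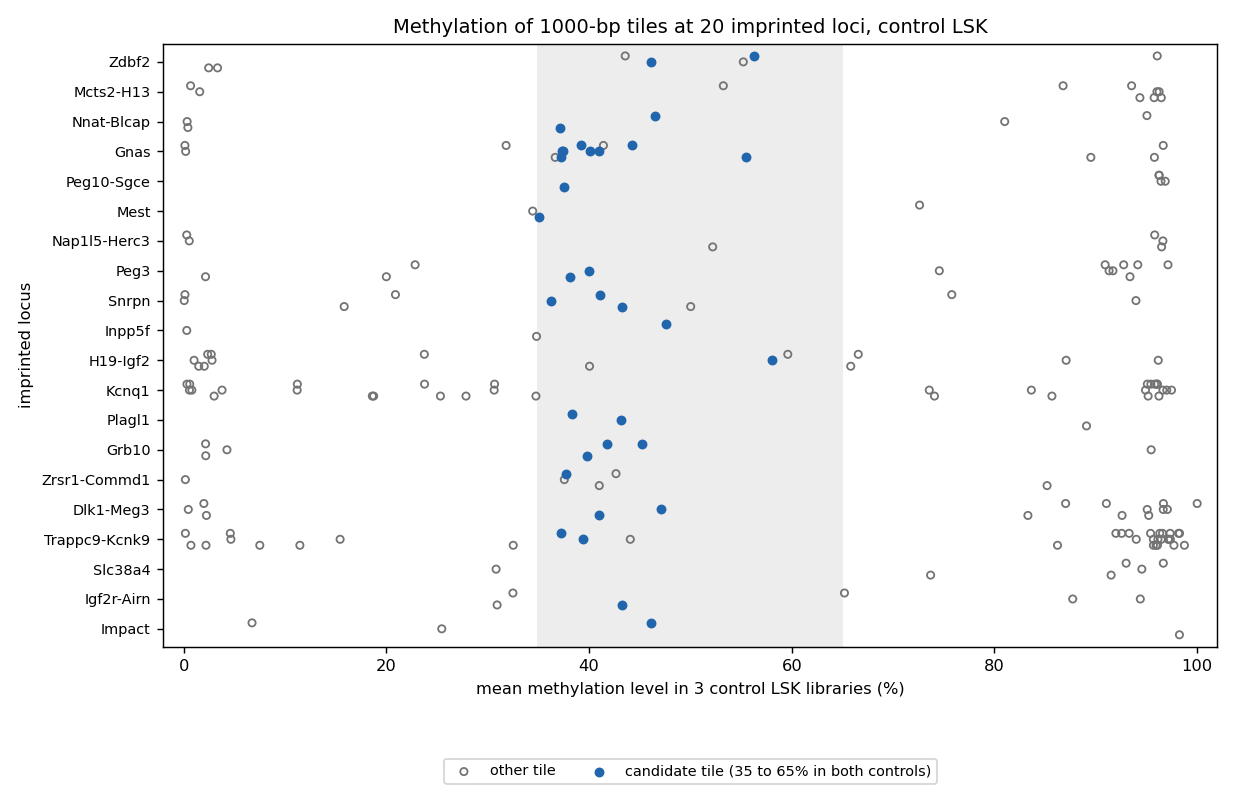
Mean methylation level (%) in the 3 control LSK libraries (x axis) of each 1000-bp tile at the 20 imprinted loci (y axis), with candidate tiles filled and the 35 to 65% range shaded. Candidates sit at 16 loci, and none are found at Mcts2-H13, Nap1l5-Herc3, Kcnq1 and Slc38a4; filled points lie between 35.06 and 58.09%.

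Tile means hide what single C positions do, so positions within the candidates were read out in control LSK with reads pooled. Of 555 C positions in the 33 tiles, 91.89% were themselves at 20 to 80%, and in 22 tiles every position was. Over the 3989 other tiles at 35 to 65%, 64.11% of 26208 positions were at 20 to 80%. In knockout LSK the shares were 88.65% and 60.45%. Some candidates were intermediate on average but not at each position. The tile before the start of Inpp5f, which encodes an inositol phosphatase, had 4 C positions, none of them at 20 to 80%. In the tile of Mkrn3, a ring-finger protein gene of the Snrpn locus, 53.3% of 30 positions were in that range, and in the tiles at the start of Meg3 (a noncoding RNA) and upstream of Grb10 50.0% were. The ranges of single positions by tile show these against Plagl1 or Mest, whose positions lay close together.

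**Figure D2:**
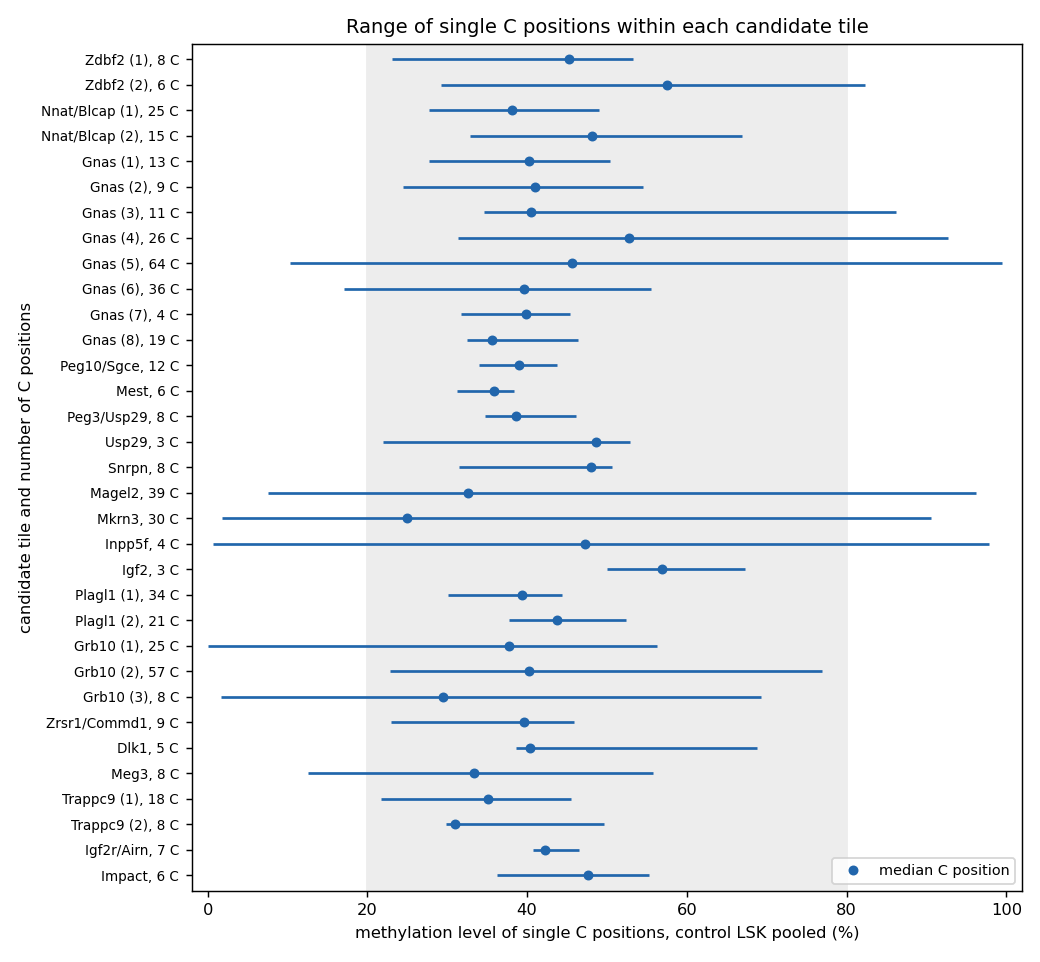
Lowest to highest single C position (line) and the median position (point) in each candidate tile, as methylation level (%) with the 3 control LSK libraries pooled, with 20 to 80% shaded. In 22 of 33 tiles the whole line is inside the shading, while Inpp5f runs from end to end with no position in it.

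Knockout LSK cells kept the intermediate level at 27 of the 33 candidate tiles (81.82%), and knockout GMP at 31 (93.94%). The 3989 other tiles at 35 to 65% in both controls kept it in 77.56% and 81.42%. The tiles that left the range all did so at the low end and by little: in LSK a Gnas tile at 32.9%, Peg3/Usp29 at 34.9%, the first Plagl1 tile at 34.98%, a Grb10 tile at 34.2%, Zrsr1/Commd1 at 31.9% and a Trappc9 tile at 33.8%, and in GMP Nnat/Blcap at 31.6% and Peg10/Sgce at 34.6%. Just inside the limits in controls lay Mest (35.06% in LSK) and a Zdbf2 tile (64.96% in GMP). Just outside lay an Inpp5f tile (34.82% in LSK) and the Zrsr1/Commd1 tile chr11:22972001-22973000, with 59 C positions at 37.6% in LSK but 33.7% in GMP.

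The candidates were set beside the other tiles at 35 to 65% in both controls. The sets did not have the same level within that range: the control medians were 41.0% for candidates and 51.25% for the others in LSK, and 43.6 and 51.6% in GMP. In LSK the median difference, knockout minus control, was -1.30 points over the 33 tiles, with values from -6.80 to 7.88, and -4.57 points over the 3989 others. None of the 33 moved by more than 10 points in LSK, while 29.73% of the others did (28.88% downward). In GMP the median was -1.75 against -3.00 points, and 5 of the 33 (15.15%) moved by more than 10 points, 4 of them downward, against 24.74% of the others. The candidates' GMP median was not stable: it was 0.15 points with C positions weighted equally, -0.38 without control LSK library 1330 (which changes the tiles chosen), -0.85 without knockout GMP library 178 and -1.22 without 179. Their LSK median was -3.06 points without knockout library 1327, -2.05 without control library 1331, -0.28 without control GMP library 346 and -0.32 with tiles shifted by 500 bp. Candidates held more C positions per tile than the others (medians of 9 and 5), so the same was read in tiles with at least 20 C positions. There the LSK medians were -1.41 points (10 tiles) and -5.10 points (118 tiles), 0 of 10 and 33.9% moved by more than 10 points, and the GMP medians were -0.52 and -5.61 points. These are descriptions of lists and were not tested as lists. When the tiles were chosen by the controls of the other cell type, so that the controls compared had no part in the choice, the medians were -1.41 points in LSK (42 tiles) and -1.85 in GMP (43 tiles), against -4.65 and -3.28 for other tiles so chosen. In knockout LSK 30 of those 42 (71.43%) were in range, against 33 in their own controls, and in knockout GMP 35 of those 43 (81.4%), again against 33. Of the other tiles so chosen, 63.34% were in range in knockout LSK and 68.56% in control LSK, and 70.06 and 70.45% in GMP.

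**Figure D3:**
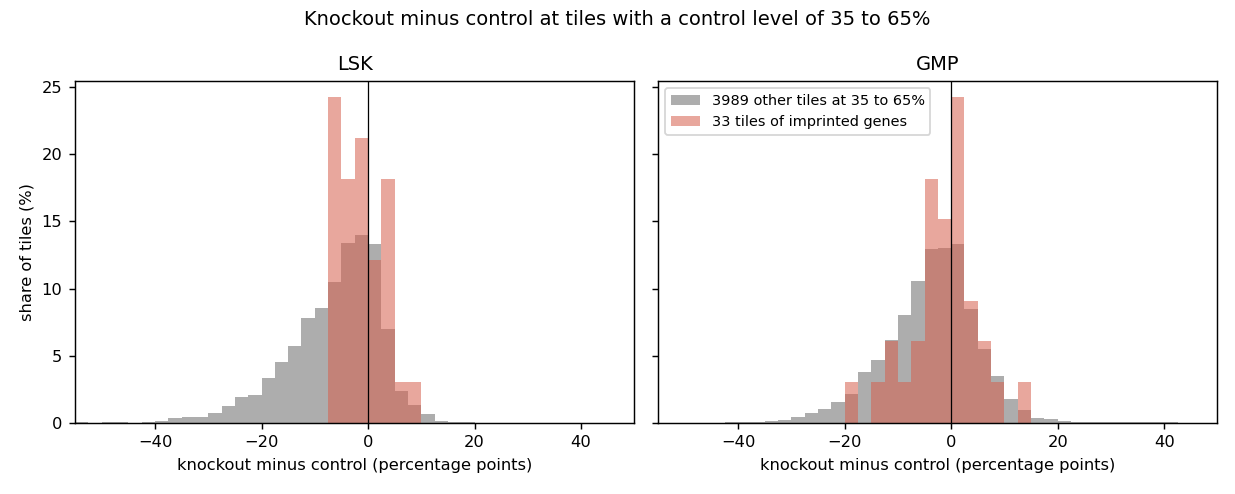
Share of tiles (%, y axis) by the difference in methylation level, knockout minus control in percentage points (x axis, bins of 2.5), for the 33 candidate tiles and the 3989 other tiles at 35 to 65% in both controls. In LSK the candidates lie within -6.80 and 7.88 points while the others tail off below -20; in GMP the candidates reach from -18.38 to 13.25.

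No candidate tile passed the test in either cell type. Tiles were called at an adjusted p under 0.05 (Benjamini-Hochberg over all tiles, quasi-binomial model with limma's moderated dispersion) and a difference of at least 20 points. In LSK 0 of 33 candidates were called, against 0.87% of all tiles called lower and 0.0028% called higher. The main test in LSK recovered 18 of 50 simulated tiles lowered by 20 points and 47 of 50 lowered by 30. An unadjusted p under 0.05 was found at 4 of 33 candidates, at 13.1% of all tiles and at 30.76% of the 3989 other tiles at 35 to 65%. The 5 to 95% prior described below also called 0 of them in LSK (0.83% of all tiles called lower). Of the 3989 other tiles at 35 to 65%, 6.142% were called lower. At 2 of 33 candidates all knockout LSK libraries were below all controls (15.0% of all tiles) and at 2 all were above (3.39% of all tiles). For the other tiles at 35 to 65% these shares were 31.09 and 1.755%. In GMP the main test called 0.0% of all tiles, and on simulated data it recovered 0 of 50 tiles lowered by 50 points, so its 0 calls carry no weight. With the dispersion prior fitted only on tiles at 5 to 95%, 0 of 33 candidates were called in GMP. Of all tiles it called 0.251% lower and 0.0271% higher. On simulated data that prior recovered 23 of 50 tiles lowered by 20 points and 49 of 50 lowered by 30. The lowered tiles started from control levels above those of most candidates and had a common spread between libraries. Recovery at the candidates' own levels was therefore not measured. At an unadjusted p under 0.05 stood 2 candidates in GMP by the main test (8.71% of all tiles, 15.24% of the other tiles at 35 to 65%) and 3 with that prior (8143 of all 107150 tiles). Both knockout GMP libraries were below both controls at 6 candidates (25.9% of all tiles) and above them at 3 (11.3%). For the other tiles at 35 to 65% the GMP shares were 32.61 and 10.48%.

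Library 1333 weighed on the LSK values. It had 19 of the 33 tiles at 35 to 65%, where the other knockout LSK libraries had 28 and 29 and the controls 28 to 32. It was also lowest on the other tiles at that level, with 63.32% in range against 74.48 and 79.79% in the other knockouts. Without it, 30 of the same 33 tiles stayed in range, the median difference was 0.05 points against -3.86 for the others, and 2 tiles moved by more than 10 points (26.62% of the others). All 3 LSK controls had a candidate in range at 25 of 33 tiles, and all 3 knockouts at 17; in GMP both controls did at 26 and both knockouts at 28.

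**Figure D4:**
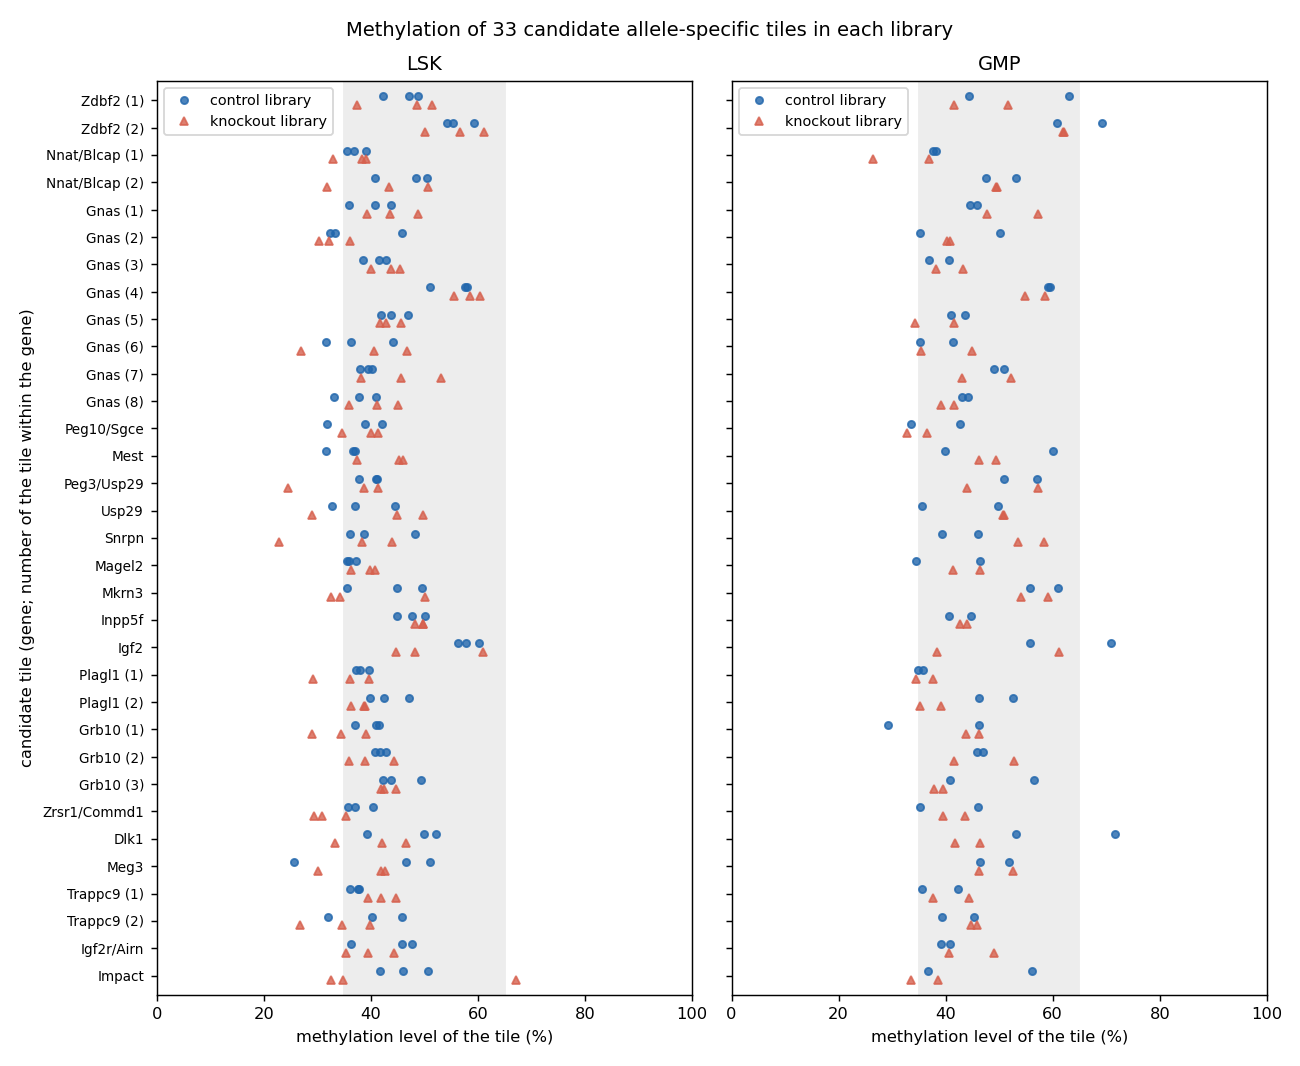
Methylation level (%, x axis) of each of the 33 candidate tiles (y axis, by gene) in every LSK library (left) and every GMP library of known group (right), controls as circles and knockouts as triangles, with 35 to 65% shaded. Control and knockout points overlap at 29 of 33 tiles in LSK and at 24 of 33 in GMP. Most of all tiles overlap too: knockouts were all lower at 15.0% and all higher at 3.39% of them in LSK, and at 25.9 and 11.3% in GMP.

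Most candidates belong to loci whose control region is methylated on the maternal allele. These 17 loci gave 28 tiles, of which 22 stayed in range in knockout LSK and 26 in knockout GMP, with median differences of -1.03 and -0.14 points. Gnas, which encodes the stimulatory G-protein alpha subunit and several other transcripts from its own promoters, gave 8. Its tile with the most C positions, chr2:174299001-174300000 inside the gene, had 64, all listed in every library of known group. The control LSK libraries read 43.8, 41.9 and 47.0% there and the knockouts 45.7, 42.9 and 41.8%. Control GMP libraries read 41.1 and 43.6%, and the knockouts 34.3 and 41.6%. The groups overlapped in both cell types. A Gnas tile of 4 C positions, chr2:174326001-174327000, had a larger shift in LSK, from 39.2 ± 1.09 to 45.6 ± 7.48% (SD, n = 3 each, adjusted p = 0.739), and was at 50.0 and 47.7% in control and knockout GMP.

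At Grb10 the largest tile was chr11:12026001-12027000, with 57 C positions inside the gene. It read 40.7, 42.8 and 41.8% in control LSK, 44.4, 35.8 and 39.0% in knockout LSK, 47.0 and 45.8% in control GMP and 52.7 and 41.5% in knockout GMP. Knockout libraries lay on both sides of the controls. The start of Grb10 printed above, in contrast, was near 0 in all groups. Magel2, a MAGE-family gene of the Snrpn locus, had 39 C positions in chr7:62377001-62378000 at 37.3, 35.6 and 36.0% in control LSK and 40.7, 39.8 and 36.2% in knockouts, and at 34.6 and 46.4% in control GMP against 41.3 and 46.4% in knockouts. At the start of Snrpn itself, which encodes a spliceosome protein, chr7:60005001-60006000 read 38.8, 36.2 and 48.2% in control LSK and 44.0, 22.9 and 38.3% in knockouts, the lowest being library 1333. In GMP the same tile was higher in both knockouts (53.5 and 58.4%) than in the controls (39.3 and 46.0%), a difference of 13.25 points with an adjusted p of 0.408 with the 5 to 95% prior, over 7 C positions.

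Plagl1 had candidates on both sides of a tile border at its start. The first, chr10:13090001-13091000 with 34 C positions, read 38.1, 39.6 and 37.2% in control LSK and 39.6, 29.3 and 36.1% in knockouts, and 35.8 and 34.8% in control GMP and 34.5 and 37.6% in knockouts. The second, chr10:13091001-13092000 with 21 C positions, was lower in every knockout library: 42.5, 47.2 and 39.8% against 36.3, 38.7 and 38.9% in LSK (adjusted p = 0.294), and 52.6 and 46.2% against 39.1 and 35.2% in GMP (adjusted p = 0.265 with the 5 to 95% prior). Both Plagl1 tiles lie in a 5-Mb window, chr10:10000001-15000000, where C positions were listed in all LSK libraries of a genotype and in none of the other, and the part of this in the difference was not tested. Further windows of this kind were found in both cell types. Together such windows held 4 tiles of imprinted genes in LSK and 0 in GMP. At Zrsr1/Commd1, chr11:22971001-22972000 with 9 C positions fell short of the test in LSK although its groups did not overlap, with 40.4, 35.8 and 37.1% in controls and 31.0, 35.3 and 29.3% in knockouts (adjusted p = 0.357). In GMP its groups overlapped, at 35.3 and 46.1% against 39.5 and 43.6%.

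Mest, an alpha/beta-hydrolase family gene, and Trappc9, a subunit of a vesicle-tethering complex, gave the LSK tiles in which every knockout was above every control. Mest, chr6:30739001-30740000 with 6 C positions, read 37.0, 36.6 and 31.5% in controls and 45.3, 46.1 and 37.5% in knockouts (adjusted p = 0.319), and in GMP it read 60.1 and 39.8% against 49.3 and 46.3%, where the groups overlapped. The Trappc9 tile, chr15:72809001-72810000 with 18 C positions, also lies within the span of Peg13, an imprinted gene inside Trappc9. It read 37.6, 36.1 and 37.9% against 39.5, 44.7 and 42.0% in LSK (adjusted p = 0.290) and 35.6 and 42.3% against 37.6 and 44.4% in GMP. Neither passed the test.

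At Nnat, the gene of the membrane proteolipid neuronatin that sits in an intron of Blcap, chr2:157560001-157561000 with 25 C positions in LSK read 35.5, 39.1 and 36.8% in control LSK and 33.01, 39.2 and 38.3% in knockouts, and 37.7 and 38.2% in control GMP against 26.4 and 36.8% in knockouts. Peg10/Sgce, where a retrotransposon-derived gene and a sarcoglycan gene start back to back, read 42.0, 38.9 and 31.8% against 39.96, 34.5 and 41.3% in LSK over 12 C positions. Peg3/Usp29, where a zinc-finger gene and a ubiquitin-protease gene share a start region, read 41.2, 37.7 and 41.0% against 38.7, 24.6 and 41.3% in LSK over 8. All 3 loci overlapped between groups in LSK, and the low Peg3 value was again library 1333. In GMP, Peg10/Sgce read 42.8 and 33.6% in controls and 36.4 and 32.8% in knockouts, and Peg3/Usp29 57.1 and 50.9% against 57.2 and 44.0%.

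At the start of Airn, the noncoding RNA that silences Igf2r, chr17:12741001-12742000 with 7 C positions read 47.7, 45.8 and 36.4% in control LSK and 39.6, 44.4 and 35.4% in knockouts, and 40.8 and 39.2% in control GMP against 49.0 and 40.6% in knockouts. The Inpp5f tile read 50.2, 47.7 and 44.98% against 49.7, 49.7 and 48.3% in LSK and 40.6 and 44.8% against 44.1 and 42.6% in GMP. Impact, a regulator of translation under amino acid stress, had 6 C positions in chr18:12989001-12990000 with the widest spread among knockout LSK libraries: 34.8, 67.1 and 32.5%, the highest being library 1333, against 46.0, 50.7 and 41.6% in controls. Its GMP libraries read 36.7 and 56.0% in controls and 33.5 and 38.5% in knockouts, so at this tile the spread within groups exceeded the differences between them in LSK.

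The paternally methylated loci, H19-Igf2, Dlk1-Meg3 and Zdbf2, gave 5 candidates, all of which stayed in range in both cell types, with median differences of -2.84 points in LSK and -7.03 in GMP. The largest downward differences in GMP were here. At Dlk1, which encodes a transmembrane protein related to Notch ligands, chr12:109459001-109460000 with 5 C positions read 53.2 and 71.6% in control GMP and 46.4 and 41.7% in knockouts (-18.38 points, adjusted p = 0.443 with the 5 to 95% prior), and 52.1, 39.2 and 49.9% against 46.5, 33.3 and 42.2% in LSK. At Igf2, the fetal growth factor, chr7:142655001-142656000 with 3 C positions inside the gene read 70.8 and 55.8% in control GMP and 61.3 and 38.5% in knockouts (-13.43 points, adjusted p = 0.779 with that prior), and 60.3, 56.3 and 57.7% against 44.6, 48.3 and 60.9% in LSK. These tiles rest on few C positions, and their control libraries differed by more than 15 points in GMP. At Zdbf2, a zinc-finger gene, chr1:63266001-63267000 read 47.2, 42.4 and 48.9% against 51.5, 48.7 and 37.5% in LSK, and 63.0 and 44.3% against 41.7 and 51.6% in GMP. At the start of Meg3, chr12:109540001-109541000 read 46.5, 25.6 and 51.0% against 42.7, 30.1 and 41.8% in LSK, and 51.9 and 46.4% against 46.2 and 52.5% in GMP. Knockout and control libraries overlapped at both.

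The loci Mcts2-H13, Nap1l5-Herc3, Kcnq1 and Slc38a4 gave no candidate. H19, the noncoding RNA whose upstream control region is methylated on the paternal allele, has no candidate tile either: chr7:142578001-142579000 was at 40.1 ± 4.29 and 42.0 ± 7.54% in control and knockout LSK (n = 3 each) but at 29.98 ± 3.75 and 19.3 ± 1.13% in GMP (n = 2 each; adjusted p = 0.702 with the 5 to 95% prior). At the Kcnq1 locus, the tile within Kcnq1ot1, the antisense RNA that silences its neighbours, had 19 C positions and lay under the range. It read 31.8, 27.9 and 23.9% in control LSK and 36.5, 44.0 and 30.1% in knockouts, and 25.8 and 35.1% in control GMP against 43.7 and 33.7% in knockouts, with adjusted p of 0.301 in LSK and 0.714 in GMP with the 5 to 95% prior. Cdkn1c, the cyclin-dependent kinase inhibitor of this locus, had 75 C positions in chr7:143459001-143460000 at 23.8 ± 1.76 and 25.01 ± 1.99% in LSK and 26.0 ± 5.33 and 23.4 ± 0.470% in GMP. Slc38a4, an amino acid transporter gene, had its start-side tile chr15:97055001-97056000 at 30.8 and 33.3% in LSK and 46.4 and 44.5% in GMP. Both tiles near Mcts2 were at 93.5 to 97.1% in controls of either cell type.

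Only 2 of the 206 tiles of imprinted genes tested in LSK were called, both lower in knockout and both outside the intermediate range (0.971% of them, against 0.87% of all tiles), and 38 (18.45%) had an unadjusted p under 0.05, against 13.1% of all tiles. The first is in H13, which encodes signal peptide peptidase, at chr2:152707001-152708000, with 28 C positions near the far end of the gene from its start. It read 88.3, 88.5 and 83.5% in the control LSK libraries and 68.2, 44.0 and 45.2% in the knockouts, a fall from 86.8 ± 2.84 to 52.5 ± 13.7% (SD, n = 3 each, adjusted p = 0.0212). All knockouts lay below all controls. In GMP it read 94.4 and 95.6% in controls and 79.6 and 83.4% in knockouts, a difference of -13.51 points that stayed under the 20 points required (adjusted p = 0.00337 with the 5 to 95% prior and 0.567 by the main test). The second is inside Kcnq1, a potassium channel gene, at chr7:143159001-143160000, with 6 C positions about 137000 bp from the Kcnq1ot1 start. It read 83.9, 87.4 and 85.7% in control LSK and 65.6, 69.0 and 60.3% in knockouts, a fall from 85.7 ± 1.73 to 64.95 ± 4.38% (adjusted p = 0.0129). In GMP it read 84.8 and 84.7% against 66.8 and 78.9% (adjusted p = 0.471 with the 5 to 95% prior).

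Both calls were lost when certain libraries were left out. Over 13 alternatives the H13 tile had adjusted p from 0.00064 to 0.380 and lost the call in 6, and the Kcnq1 tile had 0.0101 to 0.233 and lost it in 7, with no change of direction. Leaving out control 1326, 1330 or 1331 or knockout 1334 ended both calls (adjusted p of 0.133, 0.145, 0.0780 and 0.0875 for H13 and 0.0696, 0.107, 0.0830 and 0.0503 for Kcnq1). In these fits the calls lower in knockout over all tiles also fell, from 932 to 449, 380, 454 and 513. Leaving out library 1333 kept the H13 and Kcnq1 calls, with pooled differences of -28.88 and -22.76 points.

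**Figure D5:**
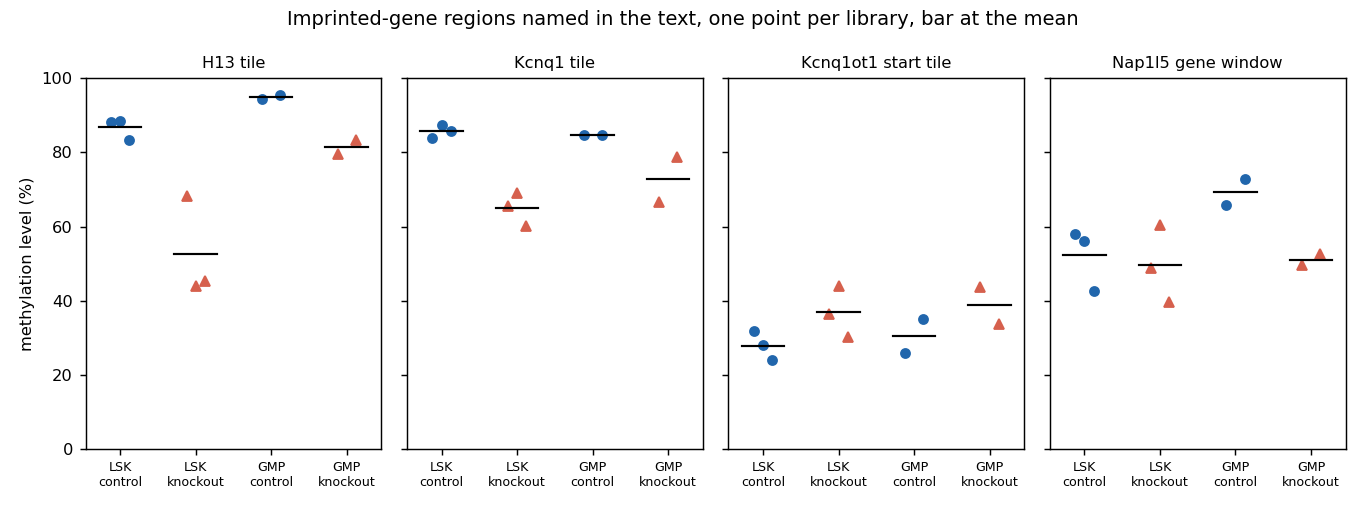
Methylation level (%, y axis) of the called H13 and Kcnq1 tiles, of the Kcnq1ot1 tile and of the Nap1l5 gene window, with 1 point per library (circles control, triangles knockout) and a bar at the group mean. Knockout points lie below control points in both cell types for H13 and Kcnq1, and only in GMP for Nap1l5.

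In GMP the main test called 0 of 210 tiles of imprinted genes, with 22 (10.48%) at an unadjusted p under 0.05, against 8.71% of all tiles. Limma on logit levels called 0 of the 210 and 0 of all tiles. It had 10 of the 210 and 7556 of all 107150 tiles at an unadjusted p under 0.05. With the 5 to 95% prior 1 of the 210 was called, lower in knockout (0.476%, against 0.251% of all tiles). It lies before Nnat, at chr2:157559001-157560000, and had 4 C positions with a mean of 15.25 reads each, at 85.2 and 100% in controls and 22.5 and 52.6% in knockouts (adjusted p = 0.0257 with that prior, 0.567 by the main test). It was not measured in LSK, and the candidate tile beside it, at the Nnat start, was at 37.9 ± 0.364 and 31.6 ± 7.37% (n = 2 each). Whether the effect of genotype differed between LSK and GMP was read from the product of cell type and genotype. That test called 0 of 197 tiles of imprinted genes and 0.003% of all tiles. It had 10 of the 197 and 5692 of all 100150 tiles at an unadjusted p under 0.05. How large a difference it can find was not tested.

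The same control libraries also allow the cell types to be set against each other, and that comparison shares them with the ones above. Of 197 tiles of imprinted genes 1 was called, lower in control GMP, against 0.781% of all tiles called lower and 0.113% called higher. It is the Gnas tile chr2:174295001-174296000, with 4 C positions at 41.4 ± 1.44% in control LSK (n = 3) and 19.9 ± 0.104% in control GMP (n = 2, adjusted p = 0.0429). With the 5 to 95% prior a Snrpn tile, chr7:60004001-60005000, and an Igf2r tile, chr17:12689001-12690000, were called as well, with adjusted p of 0.0430 and 0.0382 (0.905% of all tiles called lower and 0.146% higher). The Gnas call was lost without control 1326, 1330, 1331 or 349.

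Over whole gene windows, each the gene's span with 5 kb on each side, 0 of the 40 genes were called in LSK (0.297% of all 28635 windows were called lower). Without knockout library 1333, 0 of the 40 and 0 of all 28862 windows were called. Without knockout 1327, 0 of the 40 and 145 of all 28686 windows were called, all lower. With every LSK library, 3 of the 40 stood at an unadjusted p under 0.05 (9.6% of all windows). Limma on logit levels called 0 of the 40 and 2 of all windows, with 1 of the 40 and 2649 of all 28635 at that p. The 5 to 95% prior also called 0 of 40 in LSK (0.258% of all windows called lower). The median difference was -0.97 points over the 40 and -0.41 over all windows. Windows were called at an adjusted p under 0.05 and at least 10 points. In GMP the main test called 0 of 40 and 0.0% of all windows, with 6 of the 40 at an unadjusted p under 0.05 (11.6% of all windows). Limma on logit levels called 0 of the 40 and 0 of all windows, with 4 of the 40 and 2639 of all 28640 at that p. With the 5 to 95% prior 1 was called, Nap1l5 (0.241% of all windows were called lower and 0.0489% higher). Nap1l5 is a retrogene of the nucleosome assembly protein family inside an intron of Herc3. Its GMP window read 65.8 and 72.9% in controls and 49.7 and 52.5% in knockouts, a fall from 69.3 ± 5.01 to 51.1 ± 1.95% (n = 2 each, adjusted p = 0.0201, and 0.256 by the main test). In LSK the libraries read 57.9, 56.0 and 42.7% in controls and 48.8, 60.3 and 39.6% in knockouts, overlapping, with an adjusted p of 0.927. Most of the window's C positions, 17 of 20 in GMP, lie in the tile chr6:58906001-58907000 near its start, which was at 68.0 ± 5.26 and 48.7 ± 2.69% in GMP. The H13 window had an adjusted p of 0.0497 with that prior in GMP and a difference of -6.40 points, under the 10 required.

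Further imprinted genes and the genes that maintain imprints were read over windows of the same kind. The further imprinted genes are not a separate set of C positions. The windows of Peg13, Gpr1, Copg2 and Slc22a18 overlap those of Trappc9, Zdbf2, Mest and Phlda2, in that order. Of 30 other imprinted genes 27 could be tested. By the main test or with the 5 to 95% prior 0 were called in either cell type. At an unadjusted p under 0.05 stood 0 of the 27 in LSK and 4 in GMP, against 9.6 and 11.6% of all windows. The median differences were -0.53 points in LSK and -0.12 in GMP, against -0.41 and -0.13 over all windows. In LSK the largest differences were at Asb4 (38.3 ± 20.1 to 27.2 ± 3.22%), a gene of an ankyrin-repeat protein, at Htr2a (57.8 ± 2.24 to 50.3 ± 7.38%), a serotonin receptor gene, and at Ddc (65.8 ± 4.67 to 59.6 ± 4.85%), which encodes an amino acid decarboxylase, with adjusted p of 0.761, 0.609 and 0.642. In GMP they were at Asb4 (19.7 ± 12.9 to 33.8 ± 2.40%), at Ddc (64.4 ± 0.528 to 54.9 ± 5.00%) and at Th (84.7 ± 1.11 to 78.6 ± 3.32%), the tyrosine hydroxylase gene, none of which was called. Of 13 genes whose products set, keep or remove the mark, 0 were called in either cell type. By the main test 0 had an unadjusted p under 0.05 in LSK or in GMP, against 9.6 and 11.6% of all windows. Zfp57 was at 1.88 ± 0.428 and 0.885 ± 0.434% in control and knockout LSK, Dnmt1 at 41.7 ± 1.32 and 42.0 ± 4.56%, and Trim28 at 15.8 ± 2.28 and 15.9 ± 0.475%. The largest differences of this list in LSK were at Dppa3 (53.4 ± 5.11 to 47.5 ± 5.69%), whose product protects maternal marks after fertilisation, and Dnmt3l (92.0 ± 0.647 to 89.0 ± 1.44%), with adjusted p of 0.718 and 0.541, followed by Tet1 (24.3 ± 1.61 to 22.8 ± 0.994%). In GMP they were at Dnmt3l (76.0 ± 4.78 to 69.2 ± 1.60%), Dppa3 (68.6 ± 5.94 to 63.8 ± 1.05%) and Tet3 (33.2 ± 0.752 to 34.5 ± 1.40%); Tet1 and Tet3 encode enzymes that oxidise the methyl group.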

How the data were processed

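Genomic DNA was cut with MspI, and pieces sized 150 to 400 bp were treated with bisulfite and read as single 50-bp reads, per the labels' protocols. Per the file headers, the deposited tables give for each C position its coverage (a read count, at least 10 in every row) and its percent C and percent T. Bismark, mm10 and GRCm38 are named, without a version, by the submitters' processing notes. Of listed positions in promoter windows, 99.63% fell on a CG of GRCm38.p6. Positions listed in all 6 LSK, or all 4 assigned GMP, libraries were used. The labels do not say that libraries came from separate animals, so p-values reflect the spread of these libraries, which may be technical.

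Methylated and unmethylated reads per tile or gene window were compared by a quasi-binomial logistic model with an F test. Its dispersion was moderated by limma 3.58.1 (R 4.3.3), with a trend on log coverage and a floor of 1, and adjusted by Benjamini-Hochberg over all features. Calls use the difference of pooled levels, and printed differences are those of library means. The model was tested on simulated data. An intermediate-level prior, fitted on features at 5 to 95%, was an alternative. Genes were named by a rule: the candidate with the most C positions per locus, every called tile or window, and the 3 largest differences per list, with neighbours chosen after their values were seen. The genes and lists were chosen with earlier results of these data known.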

Additional observations from a re-analysis of the deposited data

How the results depend on the processing

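The 2 calls in LSK became 1 with a coverage minimum of 20, 1 with tiles shifted by 500 bp, and 0 with limma on logit levels or without moderation, and numbered 0 to 2 when each library was left out. Limma on logit levels and the fit without moderation called 0 of all 107074 tiles. Over all tiles, calls lower in knockout numbered 380 to 1286 when each library was left out, against 932 in the main fit. The GMP counts of tiles and of gene windows, 0 by the main test, were 1 and 1 with the intermediate-level prior. Control GMP against control LSK gave 3 tiles with that prior, and 0 to 1 without each library. A range of 40 to 60% gave 13 candidates, of which 8 stayed in range in knockout LSK and 9 in knockout GMP, and with 30 to 70% 46 and 47 stayed. The GMP median difference was 0.15 points with C positions weighted equally, -2.16 with shifted tiles, -2.15 with a coverage minimum of 20 and -2.25 to -0.38 when each library was left out, and the LSK median -3.06 to 0.11. The reading of the same 33 tiles without library 1333 was added after seeing the data. The causes were not tested. No paired analysis was possible because the groups share no replicate numbers. With 2 libraries a group in GMP, a left-out library leaves a lone sample that is assumed to vary like the others.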

Other observations

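GMP library 352, whose labels disagree, had 26 of the 33 candidate tiles at 35 to 65%, with a median of 41.0% and values from 14% (Impact) to 68.7%. It read 64.2% at the H13 tile chr2:152707001-152708000, 45.4% at the Kcnq1 tile chr7:143159001-143160000 and 31.4% at the Kcnq1ot1 tile.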
